A study of Homo sapiens with 4 samples.

Results

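The sites described here are stretches of chromatin bound by the repressor NRSF/REST inside long genes of H295R cells. They lie over 2 kb from the 5′ ends of protein-coding genes and off coding exons, but other transcripts of the host can start nearer. They were chosen by the called sites themselves. A site on the basal list was taken if it overlapped a site on the increased-dosage list by 1 bp or more, if its midpoint lay over 2 kb from every protein-coding gene 5′ end and inside a protein-coding gene of 100 kb or longer, and if no base of it fell on a coding exon. Of 5323 basal sites, 3431 overlapped an increased-dosage site (64.5%), 2954 of these lay over 2 kb from all 5′ ends, 2776 touched no coding exon and 1166 were inside a protein-coding gene. The rule left 897 sites, 26.1% of the shared sites and 16.9% of the basal list, and applied to the increased-dosage list of 5059 sites it gave 896. H295R is an adrenocortical carcinoma cell line, and in its derivative H295R/TR SF-1 doxycycline switches on extra SF-1 (NR5A1), the nuclear receptor that directs steroid-producing cells. Chromatin was precipitated with an anti NRSF/REST antibody from untreated cells (basal SF-1, 1 library) and from cells given doxycycline for 3 days (increased SF-1, 1 library; the dose is 1 mg/ml in the labels and 1 µg/ml in the methods), and 2 input DNA libraries of the same cells were not analysed here. With 1 library per dosage no difference between dosages can be tested, and every interval and p-value below describes the spread over the called sites of these libraries.

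NRSF/REST is a zinc finger protein that keeps neuronal genes silent in cells that are not neurons. It recognises a long DNA element named RE1, which is read as a left and a right part, and recruits corepressors that remove active histone marks. Many of its known targets are ion channels, receptors and proteins of synaptic vesicles, whose genes are often long and have large introns in which the element can lie far from the promoter. SF-1 binds a short element with the core AAGG and is needed for the expression of steroidogenic enzymes in the adrenal cortex.

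The DNA that most of these sites share is a match to RE1, searched here as CTGTCC and GGTGCTG with 2 bases between them on either strand, allowing no more than 2 mismatches in these 13 fixed bases. The matches below are those of the widest site with a match in genes named by size, site number or function. They are examples that passed this search, so their likeness at the fixed bases is partly built in. Each runs 21 bases in the direction of the element on hg19, and capitals mark the fixed bases that equal the consensus.
CACNA1B (chr9:140779188-140779208, plus strand): ggcgCTGTCCatGGTGCTGag
CDH22 (chr20:44859773-44859793, plus strand): gctgCTGTCCgtGGTGCTGct
CCDC33 (chr15:74557566-74557586, plus strand): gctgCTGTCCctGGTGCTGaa
ZNF638 (chr2:71575621-71575641, minus strand): ggtgCTGTCCtaGGTGCTGag
RBFOX1 (chr16:7064146-7064166, plus strand): agaaCTGTCCaaGGTGCTGaa
ASIC2 (chr17:31469923-31469943, plus strand): gtcaCTGTCCatGGTcCTGaa
PTPRT (chr20:40808610-40808630, minus strand): ggatCTGTCCttGGTGCTGac
KCNH1 (chr1:210900127-210900147, minus strand): ggaaCTGTCCatGGTtCTGaa
CACNA1A (chr19:13552875-13552895, plus strand): ggagCTGTCCagGGTGCTGaa
GRIK3 (chr1:37432057-37432077, minus strand): ggagCTGTCCctGGTGCTGac
NRXN3 (chr14:78986384-78986404, plus strand): ggacCTcTCCatGGTGCTGaa
SNAP25 (chr20:10200320-10200340, minus strand): accgCTGTCCccGGTGCTGaa
TNR (chr1:175694984-175695004, minus strand): ggaaCTGTCCtaGGTGCTGaa
SEZ6L (chr22:26655680-26655700, plus strand): ggtgCTGTCCgctGTGCTGaa
CPNE4 (chr3:131753992-131754012, plus strand): ggcgCTcTCCgtGGTcCTGcc

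The widest of the sites lies in an intron of CACNA1B, which encodes the pore subunit of the N-type calcium channel that triggers transmitter release. The site covered 1849 bp at basal SF-1 (chr9:140778501-140780349) and 1899 bp at the increased dosage, 7.19 kb into the gene. Its element is shown with 60 bases to either side (chr9:140779128-140779268, plus strand), the fixed bases of RE1 in capitals.
CACNA1B with flanks: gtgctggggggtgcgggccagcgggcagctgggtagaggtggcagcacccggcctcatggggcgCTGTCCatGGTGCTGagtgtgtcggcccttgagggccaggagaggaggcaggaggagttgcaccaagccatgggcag

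Of the 897 sites, 561 held the element, 62.5% with a 95% Wilson interval of 59.3 to 65.6%. Windows of the same width 10 kb upstream, that is at lower coordinates, held it in 21 cases, 2.34% (1.54 to 3.55%), and windows 10 kb downstream in 28, 3.12%. The element was in the site alone in 545 pairs and in the upstream window alone in 5 (exact two-sided McNemar test, p = 2.26e-154, 9.02e-154 after Benjamini-Hochberg adjustment over 4 tests). A complete match with no mismatch was present in 167 sites, 18.6%, against 1 upstream window, and a best match with 1 mismatch in 240 sites against 1 window. Matches sat near the middle of the sites, at a median of 33 bp from the midpoint. Where a site held several equally good matches the most central was taken, which favours this position. The element pointed in the direction of transcription of its gene in 286 of 561 sites, 51.0% (46.9 to 55.1%), and a departure from an even split was not detected (exact two-sided binomial test, p = 0.673, adjusted p = 0.673).

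Shared noncoding sites elsewhere served for comparison. Sites in protein-coding genes shorter than 100 kb, 269 in all, held the element in 68.8% (63.0 to 74.0%), and 1610 intergenic sites in 55.7% (53.2 to 58.1%). Sites in long genes were thus 6.89 percentage points above intergenic sites (2.87 to 10.8; Fisher's exact test, two-sided, p = 8.48e-04, adjusted p = 0.00339 over 4 comparisons). Against shorter genes the difference was -6.23 points, with an interval of -12.4 to 0.322 points (Fisher's exact test, p = 0.0702, adjusted p = 0.140). Among the widest 50% of each class the difference from intergenic sites was 3.43 points and no longer passed the test (Fisher's exact test, adjusted p = 0.525). Median GC content was 44.1% in the sites, 42.2% in their upstream windows, 49.6% in sites of shorter genes and 44.9% in intergenic sites, and its part in these differences was not tested.

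**Figure D1:**
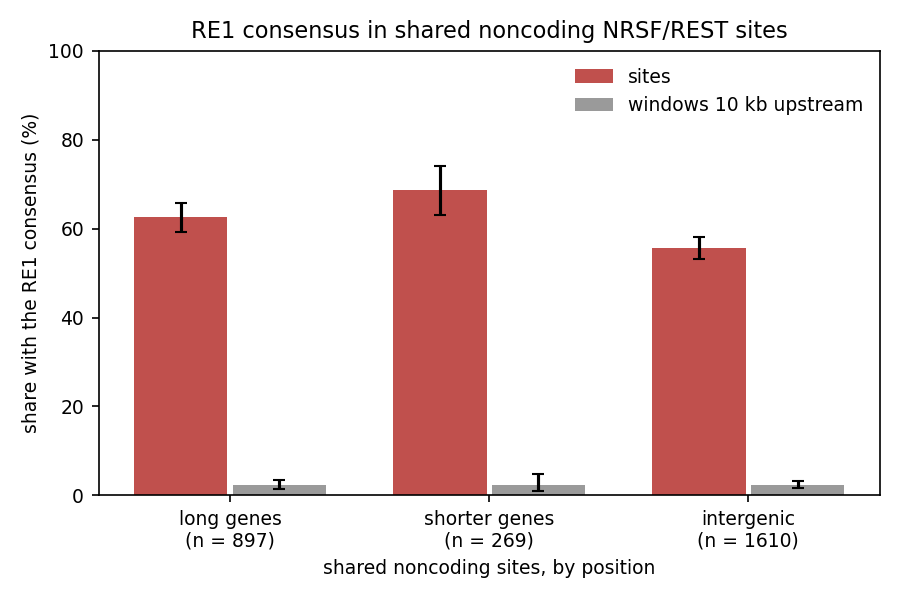
Share of shared noncoding sites (red) and of equally wide windows 10 kb upstream (grey) with the RE1 consensus at no more than 2 mismatches, in % on the vertical axis, for sites in long genes, shorter genes and between genes; bars on the columns are 95% Wilson intervals. The sites hold the element in 62.5, 68.8 and 55.7%, and the windows in 2.34, 2.23 and 2.36%.

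Within the 561 matches the fixed positions were not equally strict. Numbered from 1 at the first C of CTGTCC, the consensus T at position 2 was present in 99.8% of the sites, the G at position 10 in 99.3% and the T at position 11 in 99.5%. The G at position 12 was kept in 63.5%, with C in 20.5% in its place, and the G at position 3 in 83.6%, with C in 11.4%. The ASIC2 match above shows the former and the CPNE4 match shows both. Bases the search left free also had preferences. The first printed base was G in 69.2% and the 2 bases after the element were A in 67.7 and 53.5%. In the 1081 matches of sites in shorter genes and between genes the corresponding shares were 66.5, 69.7 and 52.4%.

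Sites with a closer match were wider. Median basal width was 649 bp in the 167 sites with a complete match, 499 bp with 1 mismatch, 449 bp with 2, 399 bp with 3, 349 bp with 4 and 249 bp in the 77 sites whose best match had 5 or more. Read the other way, with the sites split by width into 4 groups of 224 or 225, the narrowest group held the element in 40.0% (33.8 to 46.5%), the next in 50.4%, the third in 72.3% and the widest in 87.5% (82.5 to 91.2%). A wider site also offers more sequence to the search, and the upstream windows of these 4 groups held the element in 0.889, 1.34, 3.13 and 4.02%. The deposited order number, whose meaning the files do not state, ran along with this. Its median was 902 with a complete match and 2848 with 5 or more mismatches. Widths and order come from the same called lists as the rule, and these values are a description.

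A further group of sites lacked the element in its usual form but held both of its parts at another distance. Of the 336 sites without a match, 152 (45.2%, 40.0 to 50.6%) had CTGTCC and GGTGCTG on 1 strand in the same order, each with at most 1 mismatch, 0 to 20 bases apart other than 2. Their upstream windows had such a pair in 40 cases, 11.9% (8.87 to 15.8%). The pair was in the site alone in 138 cases and in the window alone in 26 (exact two-sided McNemar test, p = 1.24e-19, adjusted p = 2.47e-19). The same measure had already been seen over the whole series, which includes these sites, so the test is no independent support. In shorter genes 28 of 84 sites without the element had separated parts (33.3%) and between genes 283 of 714 (39.6%). The differences between these classes were not tested.

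The distances between the separated parts were uneven. A distance of 8 bases was found in 36 sites and 1 upstream window, 9 bases in 22 sites and 3 windows, and 10 bases in 19 sites and 1 window. Parts that abutted, with 0 bases between them, were found in 31 sites and 1 window, and distances of 13 bases in 17 sites and 3 windows. At 15 bases there were 5 sites and 5 windows, and at 12 bases 1 of each. A site with several pairs is counted at each distance.

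**Figure D2:**
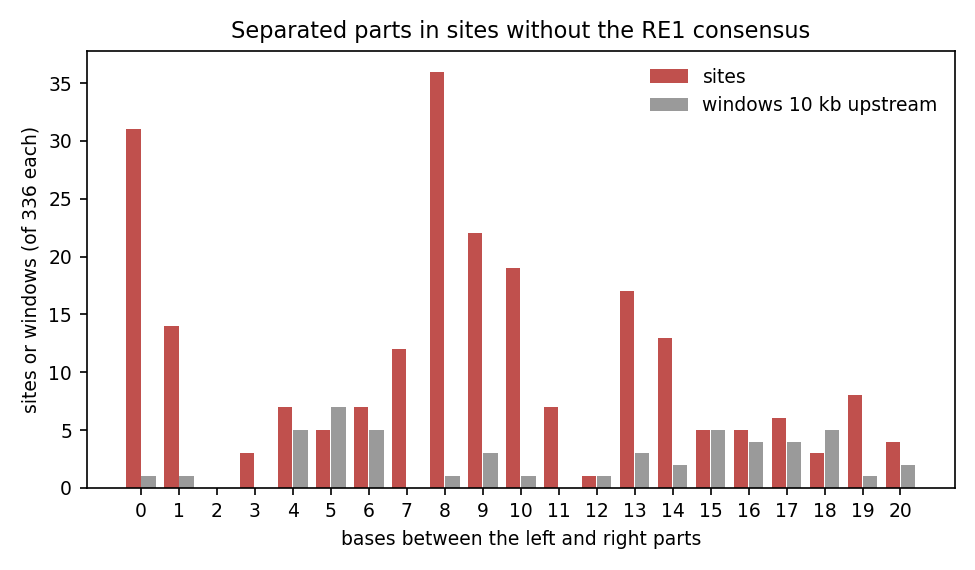
Number of sites in long genes without the RE1 consensus (red, of 336) and of their upstream windows (grey, of 336) in which the left and right parts lie at the distance on the horizontal axis, in bases, a distance of 2 being the consensus itself. The sites reach 36 at 8 bases and 31 at 0, where 1 window each is found.

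Separated parts were present in some of the sites nearest the top of the list. Among the 100 sites with the lowest basal order number, which end at order 484, 90 held the element and all of the other 10 held separated parts. At basal SF-1 the other 10 covered 499 to 1549 bp, and a wider site offers more sequence to the search. The share of windows of that width with such parts is not given here. These 10, named after their values were seen, lie in ATP2B2, PAX5, POU2F2, DLG2, CNTN4, ENSG00000288591, PLXNA4, PHACTR1, RPH3A and ALK. Pairs from several of them are printed below as examples of such spacing, chosen after their values were seen, with bases equal to CTGTCC or GGTGCTG in capitals and the bases between in lower case. The printed pairs do not show all spacings found. The best pair in RPH3A had no mismatch but lay 19 bases apart, and that in POU2F2 had 2 mismatches at 11 bases. No base of the left or right part differs from the consensus in ENSG00000288591, ALK, DLG2, PLXNA4 and PHACTR1.
ENSG00000288591 (chr12:65220284-65220304, 8 bases between): CTGTCCggacgcgaGGTGCTG
ALK (chr2:29516883-29516903, 8 bases between): CTGTCCacaaagtaGGTGCTG
DLG2 (chr11:84425482-84425502, 8 bases between): CTGTCCaccaaggaGGTGCTG
CNTN4 (chr3:2345421-2345441, 8 bases between): CTGTCCtctgcggtaGTGCTG
PLXNA4 (chr7:131955477-131955498, 9 bases between): CTGTCCtcaagttctGGTGCTG
PHACTR1 (chr6:12752124-12752145, 9 bases between): CTGTCCtcccttggtGGTGCTG
PAX5 (chr9:37027681-37027703, 10 bases between): CTGTCCacacgcagcgGGTcCTG

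ATP2B2, which encodes a plasma membrane calcium pump of neurons and hair cells, had the site of this kind with the lowest order number. That number was 11 in both lists. The site covered 1149 bp at basal SF-1 (chr3:10501501-10502649) and 1599 bp at the increased dosage, where the called region also overlapped a second basal site. By mean width over both libraries the site in ENSG00000288591 was wider, with 1449 against 1374 bp. The best match to RE1 in its usual form had 3 mismatches, while the separated parts without a mismatch lay 9 bases apart (chr3:10502016-10502157 with 60 bases to either side, capitals for the parts).
ATP2B2 with flanks: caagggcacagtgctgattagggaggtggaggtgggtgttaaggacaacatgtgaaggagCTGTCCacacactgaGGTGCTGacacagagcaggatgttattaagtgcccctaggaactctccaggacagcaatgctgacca

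The SF-1 element was searched as CAAGGTCA, CAAGGACA and CAAGGCCA, on both strands and without mismatch. It was present in 146 of the 897 sites, 16.3% (14.0 to 18.8%), and in 75 upstream windows, 8.36% (exact two-sided McNemar test, 132 sites alone against 61 windows alone, p = 3.50e-07, adjusted p = 4.66e-07). The word CAAGGACA made most of this difference, with 89 sites against 22 windows. CAAGGTCA was found in 35 sites and 30 windows, and CAAGGCCA in 30 and 28. CAAGGACA overlaps RE1, because its reverse complement TGTCCTTG is part of the NRSF/REST element wherever the 2 free bases are TT, as in the PTPRT match printed above. With SF-1 words that touch a match to RE1 of at most 3 mismatches left out, an alternative added after the data had been seen, 85 sites (9.48%, 7.73 to 11.6%) and 73 windows (8.14%) remained. The difference was then 1.34 points and did not pass the test (exact McNemar test, p = 0.356, adjusted p = 0.475). CAAGGACA alone was still found in 36 sites against 20 windows (exact McNemar test, p = 0.0402, p = 0.121 adjusted over the 3 words).

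At 12 of the sites, 1.34% (0.767 to 2.32%), the called region also overlapped 1 of the 545 SF-1 sites that the study lists as common to both dosages. Of the other 4426 basal sites 60 did so, 1.36%, a share close to it. The 12 sites lie in ATP2B2, SNAP25, SHANK2, AIM2 (a site that lies in CADM3 as well), DLGAP4, SCN10A, SORCS3, XKR6, MEGF11, LINC02210-CRHR1 (a read-through gene), MYO1D and DLG2. SNAP25 is a SNARE protein of vesicle fusion, and SHANK2, DLG2 and DLGAP4 are scaffold proteins of the synapse. Of these 12 sites, 8 held RE1, 2 held an SF-1 word, 1 held both and 3 held neither. The median basal width was 824 bp for the 12 sites and 449 bp for the other members of the class. In shorter genes 7 sites (2.60%) and between genes 25 sites (1.55%) overlapped a common SF-1 site, and these shares were not tested against each other.

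The 897 sites lay in 605 of the 3666 protein-coding genes of 100 kb or longer, 16.5%. A single site was present in 435 genes, 170 genes held 2 or more (462 sites in all) and 18 held 5 or more. The host genes were described with gene groups chosen by their symbols. Glutamate receptors and potassium channels, which carry and shape excitatory signals, held sites in larger shares of their genes than the 16.5% of all long genes. Of 19 long glutamate receptor genes 13 held a site (68.4%), and of 32 long potassium channel genes 17 did (53.1%). For calcium channels the count was 6 of 14 (42.9%), for genes of vesicle release 15 of 34 (44.1%), for immunoglobulin and neurexin-family adhesion molecules 20 of 37 (54.1%), for axon guidance 12 of 31 (38.7%) and for neuronal RNA-binding proteins 5 of 14 (35.7%). These counts are a description, since the groups were chosen with results of these data known.

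Longer genes have more room for a site, and the groups differ in length. The median gene length was 174 kb over all long genes, 296 kb for potassium channels, 410 kb for glutamate receptors and 659 kb for the adhesion molecules. Per Mb of gene there were 0.966 sites in all long genes (0.904 to 1.03, exact Poisson interval for counting error). The rate was 2.60 per Mb in potassium channels (1.70 to 3.81), 2.53 in calcium channels (1.35 to 4.33), 2.31 in glutamate receptors (1.46 to 3.47), 2.31 in genes of vesicle release (1.58 to 3.26) and 2.77 in neuronal RNA-binding proteins (1.61 to 4.43). In the adhesion molecules, hosts by number in 54.1%, it was 1.25 per Mb (0.864 to 1.76), and in axon guidance 1.26 (0.732 to 2.01), intervals that include the rate of all long genes. Without the gene of most sites in each group the rates were 2.20 for potassium channels (without KCNH1), 1.91 for calcium channels (without CACNA1A), 1.85 for glutamate receptors (without GRIK3), 2.14 for vesicle release (without NRXN3) and 2.18 for RNA-binding proteins (without RBFOX1).

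The other groups gave lower shares than these. Receptors for GABA, glycine and acetylcholine, a neuronal group like those above, held sites in 2 of 15 long genes (13.3%), below the share of all long genes, at 0.745 per Mb (0.154 to 2.18). Cadherins and protocadherins held them in 7 of 49 (14.3%). Groups not picked for neurons gave 6 of 48 for extracellular matrix (12.5%), 11 of 45 for dyneins, myosins and kinesins (24.4%) and 6 of 60 for ubiquitin ligases and proteases. In cyclic AMP signalling, the pathway by which pituitary hormones act on adrenal cells, 5 of 36 long genes held a site (13.9%), ADCY8 with 2 and PDE4B, PDE4D, ADCY1 and ADCY2 with 1 each, at 0.562 per Mb (0.206 to 1.22).

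**Figure D3:**
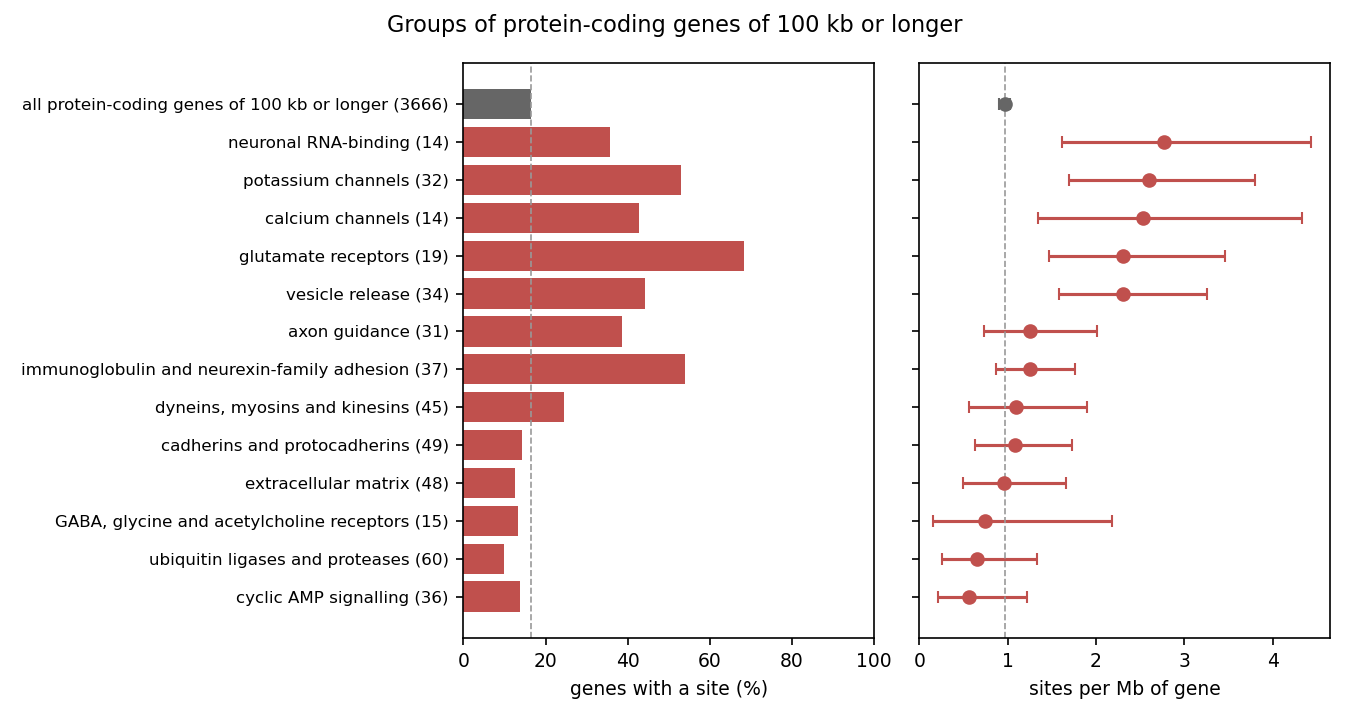
Left, share of the protein-coding genes of 100 kb or longer in each group that held a site, in %; right, sites per Mb of gene with exact 95% Poisson intervals; the number of genes is in parentheses and dashed lines mark all 3666 long genes. Potassium channels, calcium channels, glutamate receptors, vesicle release and neuronal RNA-binding proteins lie between 2.31 and 2.77 sites per Mb, above 0.966 for all long genes.

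RBFOX1, a splicing regulator of neurons and muscle, held the most sites. All 9 of its sites held RE1, 5 of them without a mismatch, and they were spread over the gene from 439 kb to 2452 kb from its 5′ end. At 2474 kb it was also the longest host gene. Its widest site covered 899 bp in both libraries and its narrowest 249 bp in both. RBFOX3, the gene of the neuronal marker NeuN, held 5 sites.

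ASIC2, an acid-sensing sodium channel, held 7 sites, of which 4 had RE1, and its widest site covered 1099 bp at basal SF-1 and 1149 bp at the increased dosage. There were 6 sites each in ATP2B2, in PTPRT (a receptor tyrosine phosphatase), in ASTN2 (astrotactin 2, of neuron migration), in DAB1 (an adaptor of reelin signalling), in NRXN3 (a presynaptic adhesion molecule) and in AGBL1. All 6 sites of DAB1 and all 6 of NRXN3 held RE1, against 2 of 6 in AGBL1. The 6 sites of NRXN3 were of like size, 399 to 599 bp at basal SF-1 and 399 to 699 bp at the increased dosage. Those of PTPRT ranged from 349 to 1049 bp and those of ATP2B2 from 349 to 1149 bp at basal SF-1.

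Channel and receptor genes with the most sites of their groups differed in which sites held RE1. GRIK3, a kainate receptor subunit, held 5 sites. The 3 wide ones, of 1199, 1149 and 1049 bp at basal SF-1, held RE1 with at most 1 mismatch, and the others, of 299 and 149 bp, had best matches of 4 and 5 mismatches. CACNA1A, the pore subunit of P/Q-type calcium channels, held 4 sites of 1249, 649, 349 and 299 bp, of which the narrowest lacked RE1. KCNH1, a voltage-gated potassium channel, held 5 sites of 749, 549, 399, 349 and 299 bp, of which again the narrowest lacked it. TENM4, a teneurin of synapse formation, and CDH13, a cadherin without a transmembrane domain, held 5 sites each, with RE1 in 4 and in all 5. Outside the neuronal groups, COL22A1, a collagen, held 5 sites, of which 4 had RE1 without a mismatch. PLXNA4, a semaphorin coreceptor, held 3 sites, of which 1 had RE1. MYO18B and FBXL7 held 2 each.

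The widest sites were not all in neuronal genes. After CACNA1B by mean width over both libraries came CDH22 (1699 bp at basal SF-1 and 1399 bp at the increased dosage), CCDC33 (1399 and 1549 bp), ENSG00000288591 (1199 and 1699 bp), ZNF638 (1349 and 1499 bp) and ATP2B2 (1149 and 1599 bp). The increased-dosage regions of ENSG00000288591 and ATP2B2 each overlapped a second basal site as well, which adds to their mean width. CDH22 is a cadherin of the brain, ZNF638 a zinc finger protein and CCDC33 a coiled-coil protein, and CCDC33 held a second wide site with a complete RE1 (1349 and 1199 bp), 89.0 kb into the gene against 62.9 kb for the first. The site in ENSG00000288591, a gene without a symbol, lies in TBC1D30 as well. In 34 sites the midpoint was inside more than 1 protein-coding gene, and the longest gene was then taken as host. For 18 sites, in 16 genes, the host had no symbol.

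The study's lists of genes that responded to NRSF/REST knockdown name 42 genes, pooled here over both directions of change and both SF-1 dosages. In the annotation 14 of them were protein-coding genes of 100 kb or longer, and 6 of these held a site, where 605 of all 3666 long genes (16.5%) did. The 14 genes had a median length of 156 kb against 174 kb for all long genes, and the difference in share was not tested. TNR (tenascin-R, a matrix protein of the nervous system) held 3, SEZ6L (a brain membrane protein) held 2, and CACNG2 (an accessory subunit of AMPA receptors), CPNE4 (a copine), KCND2 (the potassium channel Kv4.2) and SNAP25 held 1 each. The SNAP25 site, with order 18 and 21, covered 749 bp at basal SF-1 and 799 bp at the increased dosage, 47.2 kb into the gene, and held RE1 without a mismatch. The widest TNR site covered 599 bp and 1049 bp, and the CACNG2 site 749 bp in both libraries. In KCND2 the site was narrow, 299 and 199 bp, and its best match had 4 mismatches. On the study's lists KCND2 was lower after knockdown, at basal SF-1. CACNG2 was higher at both dosages, CPNE4 at basal SF-1 only, and SEZ6L, SNAP25 and TNR at the increased dosage only. CYP19A1 (aromatase, the enzyme of estrogen synthesis), GLRA1, GLRA2, KCNC2, VCAN, DOCK11, SLC7A14 and SPINK5 were long genes of the lists without such a site. The host is the gene around the site, and nothing in these files ties a site to the activity of its host.

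The share of genes with a site increased with length. It was 9.66% of genes of 100 to 200 kb (8.49 to 11.0%), 18.8% of genes of 200 to 400 kb, 35.5% of genes of 400 to 800 kb and 56.9% of the 130 genes of 800 kb or longer (48.3 to 65.1%). Counted per Mb of sequence in which a site could have met the rule, the same genes were much closer, at 0.904 sites per Mb (0.794 to 1.03), 1.05, 1.12 and 1.07 (0.908 to 1.25). All long genes together had 1.02 sites per Mb of such sequence (0.957 to 1.09), shorter genes 0.766 (0.677 to 0.863) and the space between genes 1.05 (1.00 to 1.11). The ratio of long to shorter genes was 1.34. It was 0.974 when each gene was counted with 1 site, and it was not tested.

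**Figure D4:**
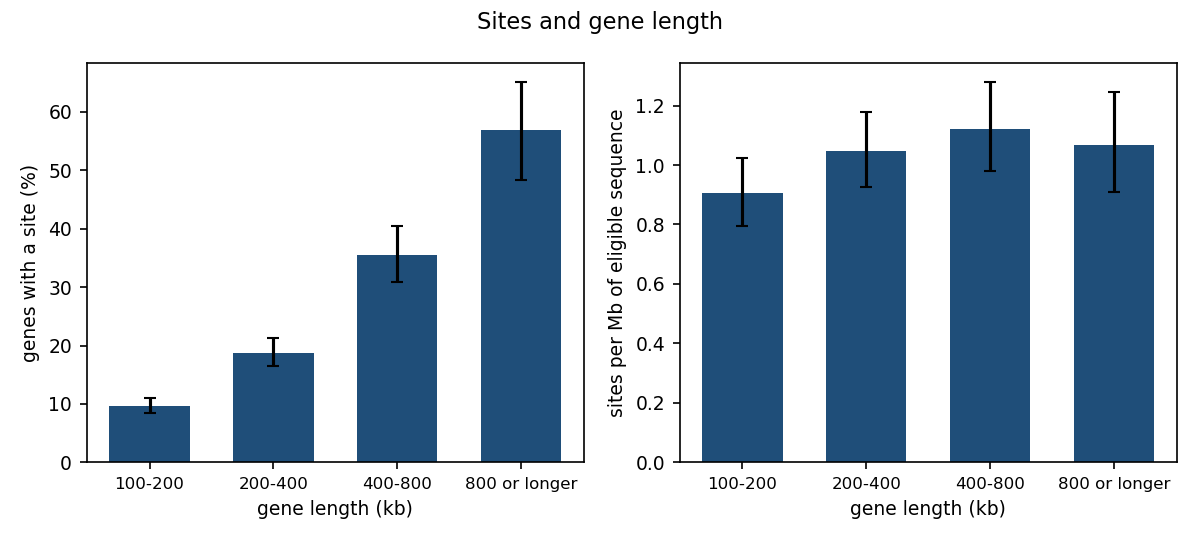
Left, share of protein-coding genes that held a site, in %, by gene length in kb, with 95% Wilson intervals; right, sites per Mb of eligible sequence in the same genes, with exact 95% Poisson intervals. The share rises from 9.66 to 56.9%, while the rate stays between 0.904 and 1.12 per Mb.

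Inside the genes the sites were spread along the whole length. From the 5′ to the 3′ end successive spans of 20% of the gene length held 20.8, 20.5, 22.0, 18.3 and 18.4% of the sites, with 19.5 to 20.3% of the eligible sequence in each. The median distance from the gene's own 5′ end was 145 kb, and 37 sites (4.12%) lay within 2 to 10 kb of it, on 3.14% of the sequence. Introns of any annotated transcript held 876 sites, untranslated exons 13 and exons of noncoding transcripts 8. The first intron of the canonical transcript held 204 sites, 22.7% (20.1 to 25.6%), on 18.5% of the sequence. No canonical transcript of the host covered 135 sites (15.1%), which were inside the gene only by its full annotated span. A further protein-coding transcript of the host started within 2 kb of 48 sites, and 61 also lay in a long noncoding RNA gene. Neighbouring sites of a gene were a median of 64.5 kb apart, and 30 of 292 neighbours were at most 5 kb apart.

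Other shared NRSF/REST sites, at the promoter or on coding exons, were counted in host genes and in long genes without a site of this class. A shared site within 2 kb of the gene's own 5′ end was present in 55 of 605 host genes, 9.09% (7.05 to 11.6%), and in 76 of the other 3061, 2.48% (1.99 to 3.10%). A shared site on a coding exon was present in 33 (5.45%) and in 62 (2.03%). Host genes were longer, with a median of 282 kb against 163 kb, and the differences and the part of length in them were not tested.

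Between the libraries the called widths were close. The median was 449 bp at both dosages, with a range of 99 to 1849 bp at basal SF-1 and 99 to 1899 bp at the increased dosage. Of the 897 sites, 304 were wider at the increased dosage, 230 equal and 363 narrower, and 723 (80.6%) changed by no more than 100 bp. Boundaries fall on steps of 50 bp, and without replicates no change of a single site can be told from the spread between libraries. Among the elements, 560 of 561 lay inside the increased-dosage site as well.

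The largest increases of width were at sites that shared their increased-dosage counterpart with a neighbour. The 5 largest, of 1200 bp at the narrow ATP2B2 site (399 to 1599 bp), 1050 bp in CACNA2D2 (149 to 1199 bp), 800 bp in RBFOX3 (249 to 1049 bp) and 750 bp in both EPHB1 and PCSK2, were at sites whose increased-dosage counterpart also overlapped a second basal site. This was the case for 13 of the 897 sites. The largest decreases were 450 bp in PLXNA4 (1549 to 1099 bp), where the basal site overlapped 2 increased-dosage sites and the wider was measured, and 400 bp in PTPRT, SYNPR and MAGI1. Differences in width at basal SF-1 from the other classes did not pass the test. The mean was 501 bp, 5.11 bp above sites in shorter genes (-29.2 to 39.4 bp; permutation test, two-sided, p = 0.767, adjusted p = 0.767) and 17.5 bp above intergenic sites (-3.40 to 38.4 bp; permutation test, p = 0.109, adjusted p = 0.146). With the widest site of each long gene set against all intergenic sites, the latter difference was 49.7 bp (permutation test, adjusted p = 2.17e-04). Choosing sites by width in long genes only raises this difference by construction, so no conclusion is drawn from it.

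**Figure D5:**
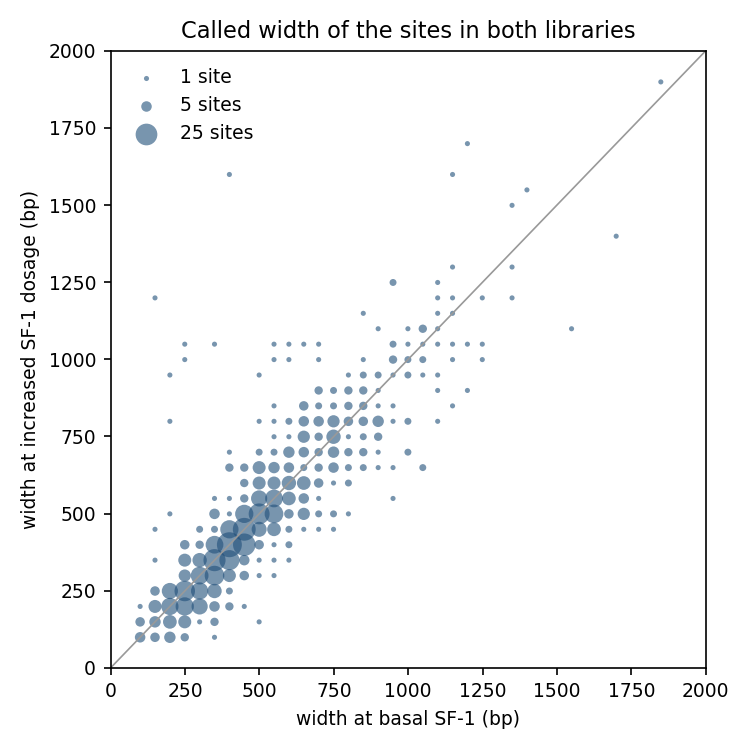
Called width of each of the 897 sites at basal SF-1 (horizontal, bp) and of the widest overlapping site at the increased SF-1 dosage (vertical, bp); the area of a point grows with the number of sites at that pair of widths and the line marks equal width. Most points lie along the line, from 99 to 1899 bp, and the 5 with the largest increases share their increased-dosage site with a second basal site.

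Sites just inside and just outside the cut-offs of the rule were as follows. The shortest host, ENSG00000206549, has 100.5 kb and a site of 249 bp, while SLC2A3 with 99.8 kb and a site of 499 bp stayed outside. A site of 549 bp in DENND1A lay 2.01 kb from a 5′ end and was the nearest kept. The smallest overlap between libraries was 49 bp, at DOCK1, and a DYRK1A site missed an increased-dosage site by 1 bp. At the same positions 535 basal sites were not shared, with a median width of 149 bp. The shared share was 62.6% (60.1 to 65.1%) at these positions in long genes, 59.6% in shorter genes and 61.8% between genes.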

How the data were processed

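NRSF/REST ChIP-seq sites of 1 library at basal and 1 at increased SF-1 dosage were analysed. Reads were mapped by the authors with ELAND to hg19 (CASAVA 1.6 in the submitters' processing notes). Peak calling settings for NRSF/REST sites are not given in the sources used here. The deposited score is 1000 for every site and was not used for ranking. Order numbers were used only as a description. Read depth is unknown, so intervals cover counting over sites.

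Starts were counted from 1. Genes, exons and 5′ ends came from GENCODE release 44 mapped to hg19, sequence from GRCh37. The sites and gene groups were chosen with earlier results of these data known. Elements were compared between sites and windows by exact McNemar tests, between classes by Fisher's exact test, widths by permutation tests (100000 resamples), element direction by an exact binomial test, all two-sided. Adjustment was by Benjamini-Hochberg in 2 families of 4 tests. Python 3.11.15, numpy 2.4.6, scipy 1.17.1, pysam 0.24.0 and matplotlib 3.10.9 were used. The dosages were not tested against each other. Some host genes of a group and a site just outside a cut-off are not reported here. The steps were tested on simulated data.

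Genes named in the text are hosts of the 6 widest sites, the 6 with most sites, the first of each group, the shortest and longest host, knockdown genes and those at cut-offs; others are named as chosen after their values were seen or belong to a count. Alternatives were a reciprocal overlap of 50%, gene lengths of 50 and 200 kb, 10 kb from 5′ ends, the widest 50%, 1 site per gene, the increased-dosage list, 0, 1 or 3 mismatches and downstream windows.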

Additional observations from a re-analysis of the deposited data

How the results depend on the processing

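The RE1 enrichment over upstream windows (18.5 to 76.4 points), the separated parts (32.2 to 38.9 points), the comparison of RE1 with shorter genes (-7.16 to -1.67 points, adjusted p 0.122 to 0.617), the width against shorter genes (-3.95 to 34.3 bp) and the strand of the element (49.0 to 53.1%) kept their side of the threshold under each alternative run. The SF-1 difference was 7.35 to 9.35 points in the other settings and 1.34 points with words inside RE1 left out (exact McNemar test, adjusted p = 0.475). RE1 against intergenic sites fell to 3.43 points in the widest 50% of each class (Fisher's exact test, adjusted p = 0.525). With 1 site per gene it was 9.14 points. There the widest site of each long gene was set against all intergenic sites, and wider sites held RE1 more often. In the other settings it was 4.52 to 8.64 points, past the threshold each time. Width against intergenic sites rose to 49.7 bp with 1 site per gene, an alternative that keeps the widest site of each gene and all intergenic sites, and the ratio of sites per Mb went to 0.974 in the same setting, which counts genes. The sites numbered 449 and their host genes 338 in the widest 50%, which drops sites by construction, and host genes numbered 396 at a gene length of 200 kb. Otherwise the sites numbered 653 to 1038. No paired analysis was possible because each dosage has 1 library, which also leaves no library to leave out.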
